A study of Mus musculus with 4 samples.

Results

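The clustered protocadherins were described in GFP+ cells sorted from mouse neural tubes at E11.5, in the presence and absence of PRDM13. The genes were chosen by symbol, as every row of the expression table named Pcdha, Pcdhac, Pcdhb, Pcdhga, Pcdhgb or Pcdhgc followed by a number, and the rule used no measured value. It gave 58 of 24421 genes: 14 of the alpha cluster, 22 of the beta cluster and 22 of the gamma cluster. Both groups carry the Prdm13GFP allele, in which GFP interrupts Prdm13 and marks the cells that use its locus. The controls were Prdm13GFP/+ (heterozygous, RNA of 7 embryos combined into 1 pool) and the mutants Prdm13GFP/GFP (homozygous, RNA of 9 embryos combined into 1 pool), with 2 polyA RNA-seq libraries made from each pool. Libraries from the same pool are technical replicates. Their SD and every p-value therefore measure the spread between libraries and hold no variation between embryos, and a difference in genotype cannot be told apart from a difference between these pools.

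Clustered protocadherins are cadherin-like adhesion proteins of neurons. Each alpha or gamma gene has its own promoter and its own large first exon, which codes for the extracellular and transmembrane part and is spliced to constant exons that code for a shared cytoplasmic tail. The beta genes are single exons with no constant part. A neuron uses a small, largely random subset of the promoters, a choice that involves DNA methylation, CTCF and cohesin, and the surface proteins bind only matching sets on another membrane, which lets a neuron tell its own branches from those of others. The C-type genes (Pcdhac1, Pcdhac2, Pcdhgc3, Pcdhgc4 and Pcdhgc5) stand at the ends of the alpha and gamma clusters and are regulated less randomly. Pcdhgc4 is known for the survival of spinal interneurons, and Pcdhac2 for the spacing of serotonergic axons.

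The 3 clusters lie side by side on chromosome 18 (GRCm38, positions of RefSeq GRCm38.p6), the alpha genes between 36930285 and 37188897, the beta genes between 37264998 and 37521419 and the gamma genes between 37661775 and 37841873. The structure bears on how the genes can be counted. In the GENCODE vM21 annotation the 14 alpha genes share exons of 59, 89 and 2712 bases after their own first exon, and the 22 gamma genes share exons of 59, 89 and 1971 bases. The exon lengths solved from the deposited values were 5206 to 5422 bases for alpha genes and 4480 to 5079 bases for gamma genes, so they include the shared exons, and 2319 to 5270 bases for beta genes. A read on a shared exon cannot be given to a single gene, and how such reads were counted is not given in the sources used here. Pcdhgc5 had 4 reads in a library and Pcdhgc3 had 959, so the reads on the shared gamma exons were not counted for every gene. Levels are therefore given as RPKM (reads scaled to exon length and library size) and, for comparisons between clusters, also per kilobase of the length that remains without the shared exons.

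The libraries held 11828824 to 18814264 reads on genes, recovered from the RPKM values. Prdm13, the targeted gene, was at 114 and 127 RPKM in the Prdm13GFP/+ libraries and at 310 and 324 RPKM in the Prdm13GFP/GFP libraries, so reads of the disrupted gene do not vanish in the mutant and its level does not mark the absence of the protein. Among 12046 genes tested, 6.33% were called different, 3.65% higher and 2.67% lower. Of 8 neuronal markers, 2 were called higher (Stmn2 and Nefl) and 1 lower (Snap25), with 5 log2 fold changes above 0 and 3 below. The summed level of the 8 was 1693 and 1742 RPKM in the controls against 2128 and 2223 RPKM in the mutants. Most of it came from Tubb3, which fell short of the fold for a call (log2 fold change 0.34, limma adjusted p = 0.00688). Of the 8, 6 had an adjusted p under 0.05 in limma, in both directions, beside 19.7% of all genes. Of 7 progenitor markers, 1 was called lower (Sox1). In limma 4 had an adjusted p under 0.05, in both directions, beside 19.7% of all genes, among them Sox2 (log2 fold change -0.48) and Hes5 (0.42). The sum of the 7, most of it from Vim and Fabp7, ranged from 2047 to 2085 RPKM against 2040 to 2111 RPKM. In the labelled lineage, Prdm13 and Ptf1a were called higher and Pax2, Lhx1 and Lhx5 lower, 5 of 6 genes. Among markers of sensory ganglion neurons, Pou4f1, which some dorsal spinal interneurons also express, was called higher, and Prph, Avil and Isl2 were under the filter. Pou4f1 was at 16.9 and 18.1 RPKM in the controls and 52.9 and 52.7 RPKM in the mutants, while Prph was at 0.649 and 0.995 RPKM against 0.660 and 0.862 RPKM. None of 3 serotonergic, 6 mesenchymal, 4 endothelial or 6 erythroid markers was called, and 0, 1, 0 and 3 of them could be tested; their sums were 0.136 to 0.160, 4.77 to 5.13, 1.73 to 1.94 and 47.2 to 47.9 RPKM in the controls against 0.0458 to 0.0798, 3.45 to 3.77, 1.75 to 1.91 and 48.6 to 49.7 RPKM in the mutants. Fev was listed at 0 in both mutant libraries and Gata1 in both control libraries. The part of these markers in the protocadherin values was not tested, and in sorted bulk RNA fewer cells that express a gene and less of its RNA per cell cannot be told apart.

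The gamma cluster was the highest of the 3 in both genotypes and the alpha cluster the lowest. The summed RPKM of all gamma genes was 34.6 ± 1.12 (SD, n = 2) in Prdm13GFP/+, that of the beta genes 11.2 ± 0.289 and that of the alpha genes 1.86 ± 0.298. Over the 4 libraries, the median level of a gene was 0.981 RPKM in the gamma cluster, 0.411 RPKM in the beta cluster and 0.0930 RPKM in the alpha cluster. Without the shared exons in the length, the sums in the controls became 63.5 ± 2.04, 11.2 ± 0.289 and 4.02 ± 0.644 on the RPKM scale, which leaves the clusters in the same order. All 58 genes together took 0.0203 and 0.0206% of the reads in the controls and 0.0173 and 0.0179% in the mutants. In the plot of levels along the chromosome, high and low genes stood side by side in each cluster. Spearman's rho of chromosomal order with the level without the shared exons was 0.51 for alpha (11 genes with reads). It was -0.09 for beta (21 genes) and 0.02 for gamma (22 genes).

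**Figure D1:**
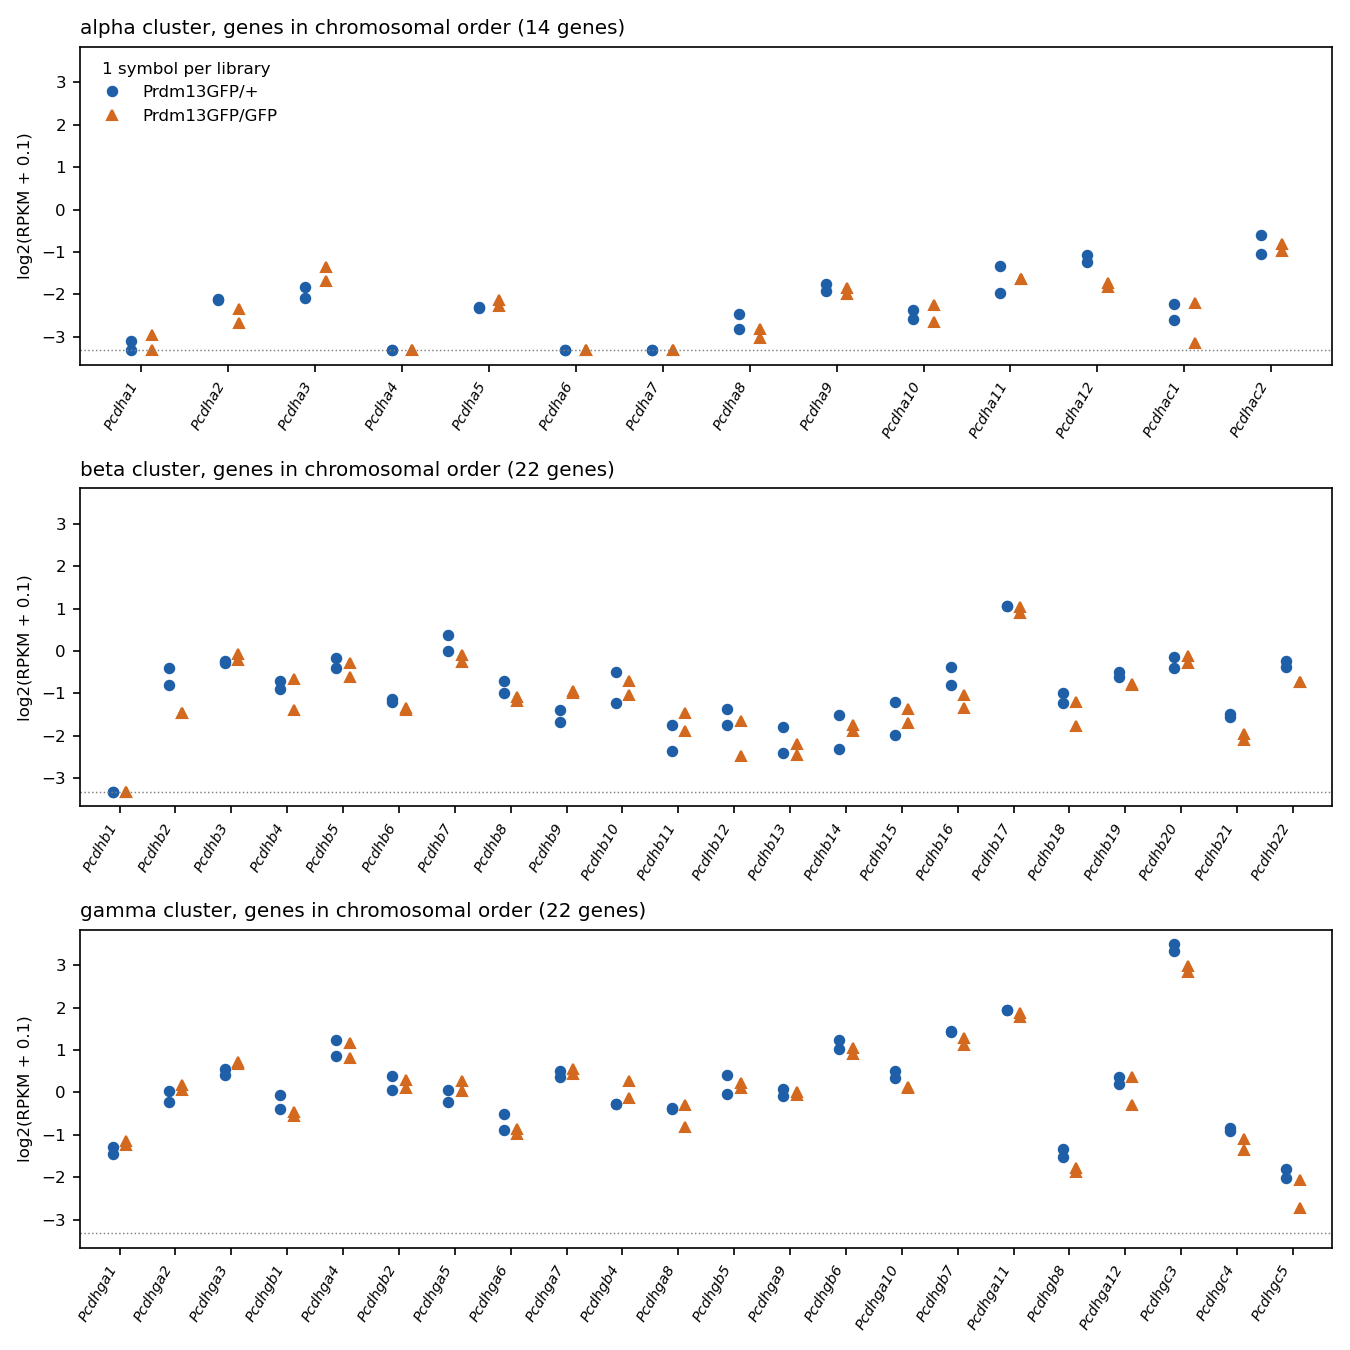
Level of every clustered protocadherin in each of the 4 libraries, as log2(RPKM + 0.1) on the vertical axis, with genes in chromosomal order along the horizontal axis. Blue circles are the Prdm13GFP/+ libraries, orange triangles the Prdm13GFP/GFP libraries and the dotted line marks an RPKM of 0; Pcdhgc3 stands highest, and Pcdha4, Pcdha6, Pcdha7 and Pcdhb1 lie on the line.

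Pcdhgc3, the first of the gamma C-type genes and the member known for promoting dendrite growth, was the highest of all 58, with a mean of 9.03 RPKM over the 4 libraries. That level was above those of 70.3% of the 24421 genes in the table. It took 30.0 and 31.8% of all gamma reads in the controls and 24.0 and 25.8% in the mutants. Pcdhga11 followed, at 3.78 and 3.76 RPKM in the controls and 3.59 and 3.35 RPKM in the mutants, and then Pcdhgb7, at 2.61 and 2.58 RPKM against 2.32 and 2.08 RPKM. The order of these 3 was the same in every library, and their values did not overlap with each other. Below them Pcdhgb6 and Pcdhga4 had means of 1.98 and 1.95 RPKM, and their libraries overlapped, from 1.77 to 2.25 RPKM and from 1.67 to 2.27 RPKM. All 22 gamma genes had reads in all 4 libraries. The lowest were Pcdhgc5 (mean 0.131 RPKM), Pcdhgb8 (0.228 RPKM) and Pcdhga1 (0.315 RPKM), so the C-type genes held both ends of the range, with the interneuron survival gene Pcdhgc4 at 0.386 RPKM.

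Pcdhb17 led the beta cluster. Its level was 1.98 and 1.99 RPKM in the controls and 1.75 and 1.97 RPKM in the mutants, from 75 to 119 reads a library. Both mutant values were below those of the controls, the higher of them only just. Pcdhb7 came next with 1.21 and 0.903 RPKM against 0.842 and 0.730 RPKM, also without overlap. Pcdhb3 (mean 0.772 RPKM) and Pcdhb20 (mean 0.751 RPKM) differed from each other by less than the spread between libraries. The other beta genes with reads had means of 0.119 to 0.682 RPKM, the lowest being Pcdhb13.

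The alpha genes had few reads, at most 38 in a library. Pcdhac2 was the highest, at 0.558 and 0.382 RPKM in the controls and 0.408 and 0.472 RPKM in the mutants, and both mutant values lay between those of the controls. Next were Pcdha12, at 0.378 and 0.322 RPKM against 0.199 and 0.181 RPKM, and Pcdha11, at 0.296 and 0.156 RPKM against 0.222 and 0.223 RPKM. The Pcdha12 libraries were separated by genotype, those of Pcdha11 were not. The GENCODE antisense gene Gm10545 covers 97.8% of the first exon of Pcdha11 and 21.5% of that of Pcdha12. The other alpha C-type gene, Pcdhac1, had 4 and 11 reads in the controls and 10 and 1 in the mutants, too few to order it among its neighbours. Pcdha1, at the start of the cluster, had 1 and 0 reads against 0 and 2.

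Pcdha4, Pcdha6, Pcdha7 and Pcdhb1 were listed at 0 in all 4 libraries. A count of 0 allows up to 3 reads in a library, which is an RPKM of up to 0.0305 to 0.0486 for the 3 alpha genes and up to 0.0633 to 0.10 for Pcdhb1 (counting error only). For the alpha genes a value of 0 does not show that their promoters were silent. At the position where each of them starts, RefSeq also places another gene that runs through the beta and gamma clusters to 37841873. Reads on exon bases that belong to a pair of genes cannot be given to either. These genes were in the table too: Gm37013, which starts at 36952648 beside Pcdha4, had 0, 1, 0 and 1 reads, and Pcdha7-g, which starts at 36973802 beside Pcdha7, had 1, 0, 2 and 0. Gm38666, which starts at 36967631 beside Pcdha6, was above 0 in a single library (0.0133 RPKM). How far the exons overlap differs between the 3 alpha genes. On the same strand, another GENCODE gene covers 96.3% of the first exon of Pcdha4, but 8.86% of that of Pcdha6 and 13.6% of that of Pcdha7. Whether this overlap accounts for the zeros was not tested. Pcdhb1 has no such partner in RefSeq.

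Whether Prdm13GFP/GFP cells differed from Prdm13GFP/+ cells was asked for each gene. The limma test was run on log2(RPKM + 0.1) for genes whose mean reached 1 RPKM in at least 1 genotype, and a gene was called at a Benjamini-Hochberg adjusted p under 0.05 over all 12046 genes and a fold of at least 1.5. Of the 58 protocadherins 14 passed the filter, 12 gamma genes, Pcdhb7 and Pcdhb17, and none of the alpha genes did. Pcdhb7, Pcdhga5, Pcdhga10 and Pcdhga12 reached the filter in only 1 genotype. In limma, 0 of these 14 were called, beside 6.33% of all genes, and 1 had an adjusted p under 0.05 whatever its fold, beside 19.7%. The same 1 had an unadjusted p under 0.05, beside 34.1% of all genes. With the filter lowered to 0.1 RPKM, 50 of the 58 could be tested (7 alpha, 21 beta and 22 gamma genes) and 0 were called, beside 5.41% of 15425 genes. In that fit 1 gene had an adjusted p under 0.05, beside 13.3%, and 2 an unadjusted p under 0.05, beside 28.9%. In limma voom on the recovered reads, 38 genes had at least 20 reads in a library and 1 was called, lower, beside 7.58% of 12818 genes called in all and 3.45% called lower; 2 had an adjusted p under 0.05, beside 26.9%, and 5 an unadjusted p under 0.05, beside 36.8%.

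**Figure D2:**
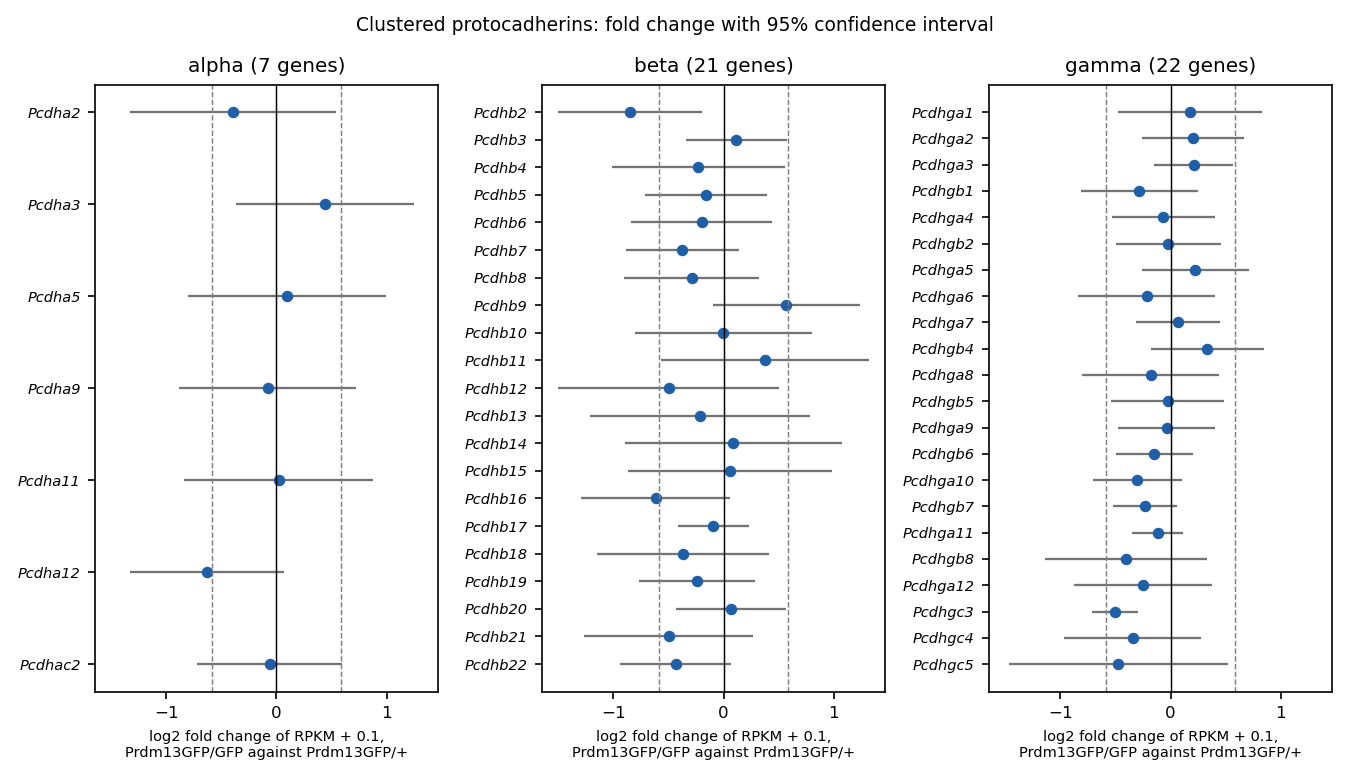
Log2 fold change of RPKM + 0.1 in Prdm13GFP/GFP against Prdm13GFP/+ (points) with its 95% confidence interval (lines) for the 50 genes with a mean of at least 0.1 RPKM in either genotype. The dashed lines mark a fold of 1.5; the intervals of Pcdhgc3 and Pcdhb2 lie below 0 and those of the other genes cross it.

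Pcdhgc3 was the gene with the adjusted p under 0.05. Its level was 10.1 and 11.2 RPKM in the Prdm13GFP/+ libraries and 7.09 and 7.80 RPKM in the Prdm13GFP/GFP libraries, from 546, 959, 540 and 500 reads. Both mutant values were below both control values, and the gap between the genotypes was wider than the distance between libraries of a pool. The log2 fold change was -0.51 (95% confidence interval -0.70 to -0.31, limma adjusted p = 0.00862), a mutant level of 0.701 times that of the controls, which is short of the fold set for a call. Voom on the recovered reads gave -0.53 (adjusted p = 5.91e-06). The adjusted p passed 0.05 without the first control library (0.0305) and missed it without the second control library (0.0791), the first mutant library (0.0691) or the second mutant library (0.0577), with a log2 fold change between -0.58 and -0.43, and with no filter it was 0.162. On the other strand, the GENCODE gene BC037039 covers 58.9% of the first exon of Pcdhgc3 (the gene lies from 37806410 to 37841873), and whether reads were counted by strand is not given in the sources used here.

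The other C-type genes had too few reads for the filter of 1 RPKM. Pcdhgc4 was at 0.430 and 0.456 RPKM in the controls and 0.367 and 0.291 RPKM in the mutants, and Pcdhgc5 at 0.147 and 0.186 RPKM against 0.0523 and 0.140 RPKM. In each of the 3 gamma C-type genes the mutant libraries lay below the control libraries, as they did in 28.6% of all 15425 genes tested at 0.1 RPKM. Pcdhgc5 passed that filter only through the controls, the group where it is high, so its separation is no independent support. It had 8 and 16 reads in the controls against 4 and 9 in the mutants. Neither Pcdhgc4 nor Pcdhgc5 passed the test in the fit with the lower filter. The log2 fold changes there were -0.35 for Pcdhgc4 (95% confidence interval -0.97 to 0.28) and -0.47 for Pcdhgc5 (-1.47 to 0.52). The alpha C-type gene Pcdhac2 gave -0.06 (-0.72 to 0.59) in the same fit, so a change of up to 1.5-fold either way is inside its interval.

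Of the other gamma genes tested, all of them A or B type with a randomly chosen promoter, 0 had an adjusted p under 0.05 in limma, beside 19.7% of all genes, and 0 an unadjusted p under 0.05, beside 34.1%. Pcdhga11 and Pcdhgb7 had the narrowest intervals after Pcdhgc3, with log2 fold changes of -0.12 (95% confidence interval -0.34 to 0.11) and -0.23 (-0.53 to 0.07) and limma adjusted p of 0.425 and 0.245. Their mutant libraries were both below the control libraries, and for both a fall of 1.5-fold is outside the interval. Pcdhgb6, at 2.25 and 1.92 RPKM against 1.77 and 1.97 RPKM, and Pcdhga4, at 2.27 and 1.72 RPKM against 1.67 and 2.13 RPKM, overlapped between genotypes. So did Pcdhgb2 (0.933 to 1.20 RPKM against 0.970 to 1.12 RPKM), Pcdhgb5 (0.879 to 1.23 RPKM against 0.970 to 1.07 RPKM), Pcdhga7 (1.18 to 1.32 RPKM against 1.26 to 1.37 RPKM) and Pcdhga12 (1.05 to 1.18 RPKM against 0.715 to 1.18 RPKM). Among the 12 gamma genes tested, only Pcdhga3 had both mutant libraries above the controls, 1.23 and 1.36 RPKM against 1.55 and 1.48 RPKM (log2 fold change 0.21, adjusted p = 0.443). Pcdhga5 had the highest log2 fold change of the 12, 0.22 (adjusted p = 0.576), from 0.761 and 0.938 RPKM against 1.097 and 0.918 RPKM, and its libraries overlapped. Pcdhga10 was at 1.16 and 1.32 RPKM against 0.977 and 1.00 RPKM (log2 fold change -0.30, adjusted p = 0.357). The GENCODE transcript Gm26672 on the other strand covers its whole first exon, 52.4% of that of Pcdhga11 and 29.7% of that of Pcdhgb7.

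Pcdhb2 was the beta gene with the lowest log2 fold change. It had 21 and 24 reads in the controls and 12 and 10 in the mutants, or 0.654 and 0.472 RPKM against 0.266 and 0.263 RPKM, with no overlap. It reached the voom filter of 20 reads only through the controls, the group where it is high, so that its call (lower, log2 fold change -0.99, adjusted p = 0.0385) is no independent support. The limma fit with the lower filter gave -0.85 (95% confidence interval -1.50 to -0.19, adjusted p = 0.0970) and did not call it. Pcdhb16, at 0.672 and 0.476 RPKM against 0.385 and 0.291 RPKM, and Pcdhb9, at 0.283 and 0.214 RPKM against 0.423 and 0.407 RPKM, were also separated by genotype, in opposite directions (voom log2 fold changes -0.68 and 0.76, adjusted p = 0.0649 and 0.124), and Pcdhb9 passed the voom filter only through a mutant library. The leading beta genes Pcdhb17 and Pcdhb7 had limma log2 fold changes of -0.09 (95% confidence interval -0.43 to 0.25) and -0.37 (-1.01 to 0.26). In the alpha cluster the voom log2 fold changes of Pcdha12 and Pcdha3 were -0.83 and 0.66 (adjusted p = 0.0540 and 0.184), on 13 to 31 and 11 to 21 reads a library. Pcdha12 passed the voom filter only through the controls and Pcdha3 only through a mutant library, in each case the group where the gene is high.

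Seen together, more genes had a lower than a higher mean in the mutants, at small fold changes. Of the 50 genes tested at 0.1 RPKM, 35 had a log2 fold change below 0 and 15 above it, with a median of -0.15, where 48.2% of all 15425 genes tested were below 0 and the median was 0.01. By cluster the counts below and above 0 were 15 and 6 for beta (median -0.22), 16 and 6 for gamma (median -0.13) and 4 and 3 for alpha (median -0.06). Both mutant libraries lay below both control libraries in 19 of the 50, beside 28.6% of all genes, and above them in 8, beside 30.0%. In either direction 27 of 50 were separated, beside 58.6% of all genes. The separated genes were 9 lower and 2 higher for beta, 8 and 4 for gamma and 2 and 2 for alpha. Members of a cluster share sequence and regulatory elements and are not independent, and the counts hold only genes that passed the filter, Pcdha2 and Pcdhgc5 among them through the controls alone.

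The summed levels show how far the clusters as a whole differed. The beta sum was 11.4 and 11.0 RPKM in the controls and 9.18 and 10.2 RPKM in the mutants, a ratio of 0.862, and the libraries did not overlap. The gamma sum was 33.8 and 35.3 RPKM against 29.8 and 30.4 RPKM, a ratio of 0.871. Without Pcdhgc3 it was 23.7 and 24.2 RPKM against 22.7 and 22.6 RPKM, a ratio of 0.947, so Pcdhgc3 carried most of the gamma difference. Within the rest, the 12 A-type genes summed to 14.54 and 14.95 RPKM against 14.2 and 14.5 RPKM (ratio 0.974) and the 7 B-type genes to 8.57 and 8.58 RPKM against 8.04 and 7.73 RPKM (ratio 0.919). The alpha sum was 2.07 and 1.65 RPKM against 1.55 and 1.76 RPKM and overlapped. Its ratio was 0.894, and 1.01 without the first control library. With 2 libraries on each side the smallest two-sided p of an exact permutation test is 0.33, so no p is given for the sums.

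**Figure D3:**
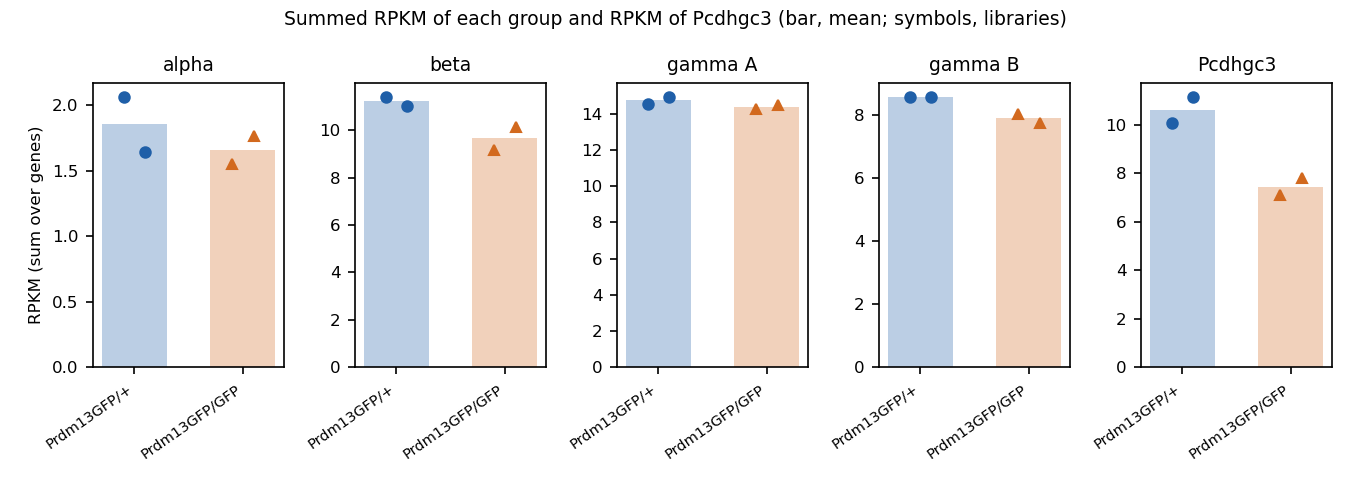
Summed RPKM of the alpha, beta, gamma A-type and gamma B-type genes and RPKM of Pcdhgc3, each with its own vertical axis from 0. Bars are the means of the 2 libraries of a genotype and symbols the libraries; the 2 genotypes overlap in alpha, and Pcdhgc3 shows the lowest ratio, 0.701.

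The order of the genes within a cluster was compared between genotypes. Across genes with reads, Spearman's rho between the mean RPKM of the controls and that of the mutants was 0.89 for alpha (11 genes), 0.92 for beta (21 genes) and 0.96 for gamma (22 genes). Between the libraries of a pool rho was 0.93 and 0.85 for alpha, 0.88 and 0.88 for beta and 0.96 and 0.91 for gamma; the first comparison is of means and the second of single libraries, so the values are not on the same footing. These points share gene length and library depth, and genes are not independent replicates.

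Genes that act on the promoters were looked at next. The list held 22 genes of CTCF and cohesin, of its loading and release, and of DNA methylation and silencing, and all 22 could be tested. In limma 0 were called, beside 6.33% of all genes, while 12 had an adjusted p under 0.05, beside 19.7%. An unadjusted p under 0.05 was reached by 16, beside 34.1%. All 12 with an adjusted p under 0.05 were lower in the mutants, beside 9.95% of all genes. Of the 22 log2 fold changes 21 were below 0, beside 47.6% of all genes, with a median of -0.20 beside 0.01. The 12 were the cohesin subunits Smc3, Stag1 and Stag2, the cohesin loader Nipbl, the release and maintenance factors Wapal, Pds5a and Pds5b, the silencing protein Smchd1, the maintenance methyltransferase Dnmt1 and its partner Uhrf1, and the demethylating enzymes Tet1 and Tet2. Smchd1 was at 20.9 and 20.4 RPKM in the controls and 16.3 and 15.7 RPKM in the mutants (log2 fold change -0.37, adjusted p = 0.00601). Dnmt1 was at 70.5 and 69.7 RPKM against 55.7 and 57.6 RPKM (-0.31, adjusted p = 0.00605). Ctcf itself was at 55.8 and 57.5 RPKM against 53.0 and 48.2 RPKM (-0.16, adjusted p = 0.104), and the de novo methyltransferase Dnmt3b was the lowest methyltransferase, at 3.62 and 3.43 RPKM on average. These genes were lower by less than 1.5-fold, and any link to the protocadherin levels was not tested.

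**Figure D4:**
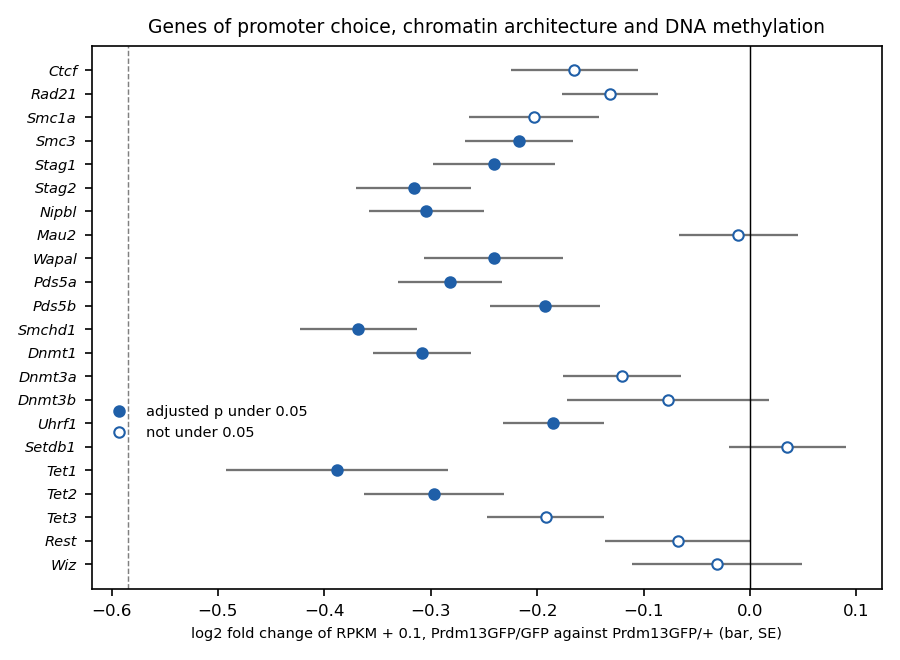
Log2 fold change of RPKM + 0.1 in Prdm13GFP/GFP against Prdm13GFP/+ (points, with SE as lines) for the 22 genes of promoter choice, chromatin architecture and DNA methylation. Filled points have an adjusted p under 0.05 and all lie below 0; the dashed line marks a fold of 1.5, which none of the genes reached.

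Of the 6 genes that cut protocadherins, 0 were called in limma, beside 6.33% of all genes, and 1 had an adjusted p under 0.05, beside 19.7%. The count at an unadjusted p under 0.05 was also 1, beside 34.1%. Psen2, a catalytic subunit of gamma-secretase, was at 1.95 and 1.83 RPKM in the controls and 2.74 and 2.95 RPKM in the mutants (log2 fold change 0.56, adjusted p = 0.0240), just short of the fold for a call. Adam10, the sheddase, was at 41.5 and 36.4 RPKM against 39.6 and 37.7 RPKM and overlapped. Of 17 partners inside the cell and at the membrane 16 could be tested. In limma 1 was called, beside 6.33% of all genes, and 3 had an adjusted p under 0.05, beside 19.7%. Cyfip2, a subunit of the WAVE complex that binds protocadherin tails, rose from 22.7 and 21.9 RPKM to 34.2 and 34.7 RPKM (log2 fold change 0.63, adjusted p = 0.000527). Its paralog Cyfip1 was at 11.1 and 11.2 RPKM against 11.1 and 11.3 RPKM. The kinase Fyn and the actin-linked protein Marcks were higher by less than 1.5-fold (0.36 and 0.21, adjusted p = 0.00551 and 0.0364). The other partners tested had an adjusted p above 0.05, among them the kinase Ptk2, at 33.7 RPKM on average in each genotype. Nlgn1 had the lowest log2 fold change, -0.74 (limma adjusted p = 0.0600), from 1.34 and 1.47 RPKM against 0.867 and 0.735 RPKM. It passed the filter only through the controls. Of the 16 partners tested, 11 had a log2 fold change above 0 and 5 below.

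The genes beside and between the clusters were compared in the same way. Of 15 such genes 10 could be tested. In limma 0 were called, beside 6.33% of all genes, 0 had an adjusted p under 0.05, beside 19.7%, and 1 an unadjusted p under 0.05, beside 34.1%. Their median log2 fold change was 0.05, beside 0.01 over all genes, with 7 above 0 and 3 below. Taf7, which lies between the beta and gamma clusters, was at 8.92 and 8.61 RPKM in the controls and 9.74 and 9.56 RPKM in the mutants (0.14, adjusted p = 0.176). Diap1, next to the gamma cluster, was at 12.7 and 12.3 RPKM against 11.3 and 12.1 RPKM (-0.09, adjusted p = 0.354). Any link between these genes and the protocadherin levels was not tested.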

How the data were processed

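Neural tubes of E11.5 embryos were dissociated, GFP+ cells were sorted, and polyA RNA of 1 pool per genotype was made into 2 libraries. The authors aligned the reads to mm10 with TopHat2 2.1.0, counted reads on exons of RefSeq genes with featureCounts, normalized with TMM in edgeR 3.6.8, and deposited RPKM. Genotypes were taken from the submitters' sample titles. ChIP-seq files were not used here.

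Whole reads were recovered from the RPKM steps for 99.2% of the 19200 genes above 0, and 72.3% of the solved lengths lay within 5% of the GENCODE vM21 length. The effective library sizes solved were 11572778 to 18323396 reads. Precision is limited by these reads. The limits for genes at 0 cover counting error only, and confidence intervals of fold changes come from limma and rest on the spread between libraries. Values were put on a log2(RPKM + 0.1) scale and compared with limma 3.58.1 in R 4.3.3 (lmFit, then eBayes using a trend), two-sided, in genes with a mean of at least 1 RPKM in either genotype, and fold changes on this scale understate those of low genes. The main limma fit was also run on simulated data, and the voom fit and the other alternatives were not. Python 3.11.15, numpy 2.4.6, pandas 2.3.3, scipy 1.17.1 and matplotlib 3.10.9 were used.

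Members were named by rule: those with at least 1 RPKM in a genotype or called, the highest 3 of each cluster, the C-type genes and those listed at 0. Other members, and list genes that were not called, were named after their values were seen. The other lists were genes of promoter choice, architecture and methylation, shedding and cleavage, partners, neighbours, and markers of neuronal, progenitor, labelled lineage, serotonergic, sensory ganglion, mesenchymal, endothelial and erythroid cells, of which Wapal and Diap1 were matched by gene ID. The result of 1 marker gene, and the sum that holds it, is not reported here. The members and lists were chosen with earlier results of these data known. All 58 matched a RefSeq gene by ID. Alternatives were pseudocounts of 1 and 0.01, no filter, a filter of 0.1 RPKM or of 1 RPKM in both libraries, quantile normalization, median ratio scaling, no trend, voom on genes with at least 20 reads in a library, a block for the replicate number, the fit without each library in turn, and for sums reads without a length, genes with at least 20 reads, and lengths without the shared exons. No sequences of these genes are printed.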

Additional observations from a re-analysis of the deposited data

How the results depend on the processing

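The 14 tested members gave 190 fold changes under the alternatives, of which 182 kept their direction and their side of the threshold, 8 changed direction and 0 passed the threshold. The 8 belong to 5 gamma genes, and all came from leaving out a library. In the main comparison the log2 fold change was -0.25 for Pcdhga12 and between -0.06 and 0.07 for the others. Over the libraries left out, the log2 fold change ranged from -0.25 to 0.12 for Pcdhga4, from -0.19 to 0.15 for Pcdhgb2, from -0.25 to 0.20 for Pcdhgb5, from -0.58 to 0.0735 for Pcdhga12 and from -0.00398 to 0.14 for Pcdhga7. The values on the other side of 0 were 0.12 and 0.10 for Pcdhga4 (without the first control or the first mutant library), 0.15 and 0.0741 for Pcdhgb2 (second control, first mutant), 0.20 and 0.0411 for Pcdhgb5 (second control, second mutant), 0.0735 for Pcdhga12 (first mutant) and -0.00398 for Pcdhga7 (second control). Members called lower numbered 1 with voom on the recovered reads and 0 in the main comparison and with the filter of 0.1 RPKM. Members with an adjusted p under 0.05 numbered 2 with voom and 0 with no filter, and ranged from 0 to 1 when each library was left out (0 without the second control library or either mutant library). Over all genes, 440 were called higher and 322 lower in the main comparison, and 30 and 14 with no filter, where 24421 genes were tested. When each library was left out the calls ranged from 258 to 437 higher and from 212 to 266 lower, the lowest of each without the second mutant library. The cause of the other changes was not tested.

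The replicate numbers do not pair the samples: the differences between replicates 1 and 2 correlated by 0.05 between genotypes. With the replicate number as a block, 459 genes were called higher and 342 lower, 0 members were called and Pcdhgc3 had an adjusted p of 0.00256 (log2 fold change -0.51). The ratios of the summed levels ranged from 0.803 to 1.01 for alpha, 0.819 to 0.905 for beta and 0.852 to 0.892 for gamma. The ends of these ranges came from leaving out a library. With 2 libraries a group, that step cannot leave the spread between libraries, so it shows no robustness. Under the other alternatives the ratios were 0.891 to 0.902 for alpha, 0.857 to 0.862 for beta and 0.869 to 0.873 for gamma. Depth limits the alpha genes most: 11 of 14 had fewer than 20 reads in every library, as did 8 of 22 beta genes and 1 of 22 gamma genes. With 1 pool per genotype no variation between embryos can be estimated.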
